A study of Homo sapiens with 32 samples.

Results

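The terminal 2 Mb of the autosomes were taken as the subtelomeric ends and compared with the rest of the same chromosomes. Each end was defined by position alone, as the bases within 2000000 bp of either end of chromosomes 1 to 22 in GRCh38, the genome build of the region files. The short-arm ends of chromosomes 13, 14, 15, 21 and 22 were left out, which gave 39 ends among 1375 windows of 2 Mb. The ends held 76.2 Mb of known bases, or 2.77% of the autosomes. Their GC content was 48.9% against 40.7% elsewhere, and they held 21.5 CpG dinucleotides per kb against 9.78. They also held 1238 protein-coding genes, or 16.3 per Mb against 6.67 per Mb elsewhere.

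U-DNA-Seq maps uracil in genomic DNA. Sonicated DNA is captured on ΔUNG, a form of the glycosylase UNG that binds uracil without removing it and bears a FLAG tag, and is sequenced beside its input DNA. The series had 32 samples, of which 15 enriched libraries had a region file listing the intervals where the log2 value of enriched over input signal lay above a threshold. The covered share below is the percentage of known bases of an end, a gene or a window that lay in such regions. It is not an amount of uracil, because the authors chose the threshold of each library, and the total region length follows from that choice.

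Of these libraries, 14 came from HCT116, a colorectal carcinoma line deficient in mismatch repair (MMR), in 7 conditions with 2 biological replicates each. WT denotes unmodified, non-treated cells. NT_UGI denotes non-treated cells that stably express UGI, an inhibitor of the uracil-removing glycosylase UNG, together with EGFP after retroviral transduction and sorting of fluorescent cells. NT_UGI_MMR denotes non-treated UGI-expressing cells of a subline in which an added chromosome 3 restores MMR. The drug-treated conditions were 5FdUR_UGI and 5FdUR_UGI_MMR (20 µM 5-fluoro-2′-deoxyuridine, 48 h) and RTX_UGI and RTX_UGI_MMR (100 nM raltitrexed, 48 h). All drug-treated cells thus expressed UGI, and no drug-treated cell without UGI was among the libraries. The paper states that its method also detects fluorouracil, which treatment with 5-fluoro-2′-deoxyuridine (5FdUR) places in DNA directly. Regions called after 5FdUR may therefore mark either base, and these libraries cannot tell them apart. The remaining library came from non-treated K562 cells, a leukaemia line, and has no replicate.

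The DNA next to human telomeres consists of blocks duplicated between chromosomes, which carry families such as olfactory receptor and tubulin genes. Further inward, single-copy DNA of many arms is rich in genes and CpG islands. Uracil enters DNA when cytosine deaminates or when DNA polymerases use dUTP in place of dTTP. Both drugs act on thymidylate synthase, the enzyme that makes dTMP from dUMP, and the gene of that enzyme (TYMS) itself lies in the 18p end.

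To show DNA with contrasting calls, for each of 4 patterns of calls, the longest run of bases in the ends was found. These runs were picked for their calls, so they illustrate the patterns and test nothing, and the composition of all bases of a pattern was not measured. The first run was called in all 8 drug-treated libraries and in no non-treated library. It lay in 2q and was 8100 bp long, with a GC content of 54.4% and 24.3 CpG per kb. The second run was called in all 6 non-treated libraries and in no drug-treated one. It lay in 1q, outside protein-coding genes, and was 4500 bp long with a GC content of 30.8% and 4.89 CpG per kb. Its central 200 bases (chr1:247701551-247701750, plus strand of the GRCh38 genome) are printed to show the AT-rich DNA called without drug, and hold no CpG dinucleotide.
1q, non-treated only: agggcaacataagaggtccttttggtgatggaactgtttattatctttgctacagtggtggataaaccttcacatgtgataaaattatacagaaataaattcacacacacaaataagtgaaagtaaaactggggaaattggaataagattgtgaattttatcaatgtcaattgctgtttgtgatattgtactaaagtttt
The third run was called in all 4 5FdUR libraries and in no RTX library. It lay in 20p and was 18000 bp long, with a GC content of 54.2% and 27.2 CpG per kb. The fourth run was called in all 4 RTX libraries and in no 5FdUR library. It lay in 17p and was 14300 bp long, with a GC content of 44.7% and 18.8 CpG per kb.

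Bases with the first pattern added up to 267.6 kb of the ends, or 0.351% of their known bases against 0.329% elsewhere. The second pattern held 185.7 kb, or 0.244% of the ends against 2.12% elsewhere. The 5FdUR-only pattern held 1616 kb (2.12% against 1.12%) and the RTX-only pattern 1872 kb (2.46% against 2.33%).

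One library stood apart from the others of its drug. Over the 39 ends, the covered shares of replicate 1 of 5FdUR_UGI correlated (Pearson) at 0.76 with those of its own replicate, at 0.49 and 0.02 with those of 5FdUR_UGI_MMR, and at 0.66 to 0.77 with those of the RTX libraries. The highest of these values was with an RTX library, replicate 1 of RTX_UGI_MMR. By shared bases in the ends it was closest to its own replicate. The Jaccard index (shared bases as a fraction of all bases called by either library) was 0.453 there, against 0.288 to 0.399 with the RTX libraries. In the rest of the autosomes this did not hold. The index was 0.4188 with its own replicate and 0.379 to 0.4345 with the RTX libraries, highest with replicate 2 of RTX_UGI. The label was kept and is in doubt to that extent, so the tests and counts of ends between the drugs are given with and without this library. Values of single ends and genes are given with it.

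The subtelomeric ends were sparsely covered in non-treated cells and broadly covered after either drug. Non-treated libraries covered 2.53% and 2.52% (WT), 2.17% and 2.84% (NT_UGI), and 2.48% and 2.65% (NT_UGI_MMR) of the ends. Drug-treated libraries covered 27.5% and 34.99% (5FdUR_UGI), 26.8% and 18.03% (5FdUR_UGI_MMR), 28.2% and 33.5% (RTX_UGI), and 17.4% and 22.7% (RTX_UGI_MMR). Every drug-treated library thus lay above every non-treated one. K562 covered 2.63%, inside the range of the non-treated HCT116 libraries. In the rest of the autosomes the covered share was 11.6% to 11.9% without drug and 17.1% to 19.3% with drug. The lowest log2 values were 0.13 to 0.25 in the 5FdUR files, 0.25 to 0.27 in the RTX files and 0.25 to 0.33 in the non-treated files. These ranges met or overlapped, and the part of the thresholds in the covered share was not tested.

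**Figure D1:**
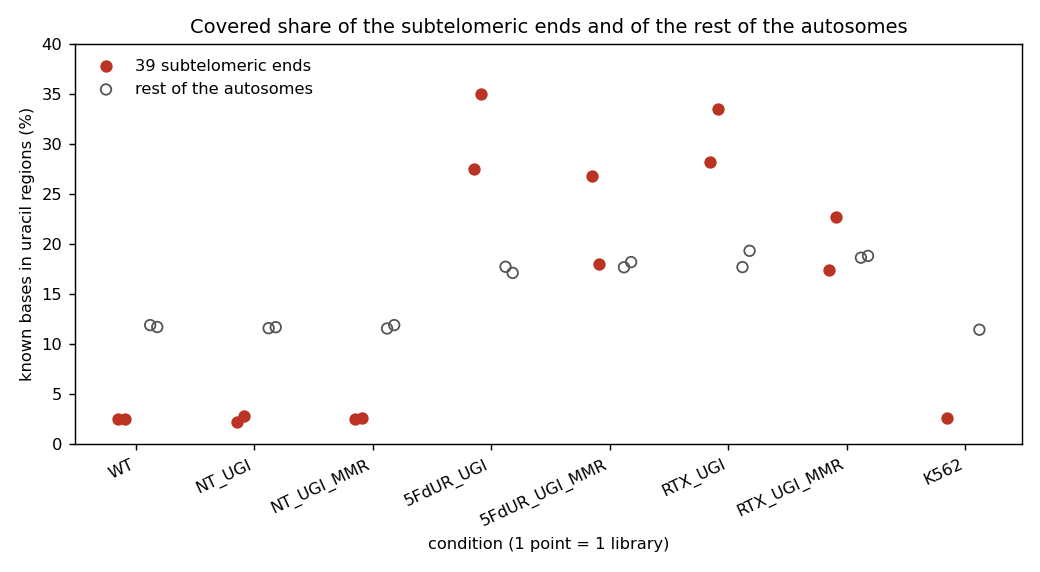
Percentage of known bases in uracil regions for each library, in the 39 subtelomeric ends (filled points) and in the rest of the autosomes (open points), by condition. Filled points lie below open points in all 6 non-treated HCT116 libraries and in K562, and above them in 6 of the 8 drug-treated libraries.

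To take out the total region length, the covered share of the ends was divided by that of the rest and put on the log2 scale. This subtelomeric log2 ratio was −2.42 to −2.04 in the 6 non-treated libraries (median −2.22) and −0.10 to 1.03 in the 8 drug-treated libraries (median 0.62). The groups did not overlap. The mean was −2.21 ± 0.12 (SD, n = 6) without drug and 0.49 ± 0.40 (SD, n = 8) with drug. The difference of 2.70 on the log2 scale corresponds to a 6.50-fold change in the share of the ends relative to the rest (exact permutation test, two-sided, p = 0.000666, the smallest this design can give; Benjamini-Hochberg adjusted over 6 tests p = 0.00133). With the 7 conditions as samples in place of libraries, the exact test could not pass the threshold of 0.05.

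Base composition moved with this difference, so the ends were also set against windows of the same GC content. Each library's expected share was taken from 20 kb windows elsewhere in the autosomes, in classes of 1% GC, weighted by the classes of the ends. Sparse classes at either extreme were joined to the nearest class with at least 50 interior windows. On this GC-standardised log2 scale, non-treated libraries lay between −0.06 and 0.14 (mean 0.06 ± 0.07, SD, n = 6). All 8 drug-treated libraries lay below 0, at −0.41 and −0.08 (5FdUR_UGI), −0.13 and −0.14 (5FdUR_UGI_MMR), −0.37 and −0.30 (RTX_UGI), and −0.63 and −0.58 (RTX_UGI_MMR). The ends therefore held less of the regions than GC-matched interior DNA in every drug-treated library. The direction was opposite to that of the unstandardised ratio, and the difference between drug-treated and non-treated libraries was −0.39 (exact permutation test, two-sided, p = 0.000666, adjusted p = 0.00133). With regions of at least 5 kb alone it was −0.26 and did not pass (exact permutation test, adjusted p = 0.0826).

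Within classes of GC content, the ends were compared directly with the interior. In windows under 40% GC, the ends were covered at 14.4% ± 0.89 without drug and 5.77% ± 1.93 with drug, against 21.1% ± 0.30 and 7.87% ± 2.92 elsewhere (SD, n = 6 and 8). In windows of 50% to 55% GC, the ends were covered at 0.157% ± 0.130 without drug and 34.1% ± 9.196 with drug, against 0.0585% ± 0.0329 and 43.6% ± 12.5 elsewhere. After RTX, the ends stood lower than the interior in the classes from 40% to 60% GC, for example 27.5% ± 3.84 against 38.9% ± 3.80 at 45% to 50% GC. After 5FdUR, the same class gave 30.8% ± 5.74 against 35.3% ± 7.88. At 50% to 55% GC the gap was wider after RTX (31.15% ± 8.19 against 48.3% ± 9.96) than after 5FdUR (37.0% ± 10.4 against 38.9% ± 14.4). In that class both 5FdUR_UGI_MMR libraries were higher in the ends (39.1% against 36.1%, and 22.9% against 19.7%). Both 5FdUR_UGI libraries were lower there (38.1% against 51.05%, and 47.9% against 48.7%). Windows of at least 60% GC made up 9.34% of the ends and 0.200% of the rest.

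**Figure D2:**
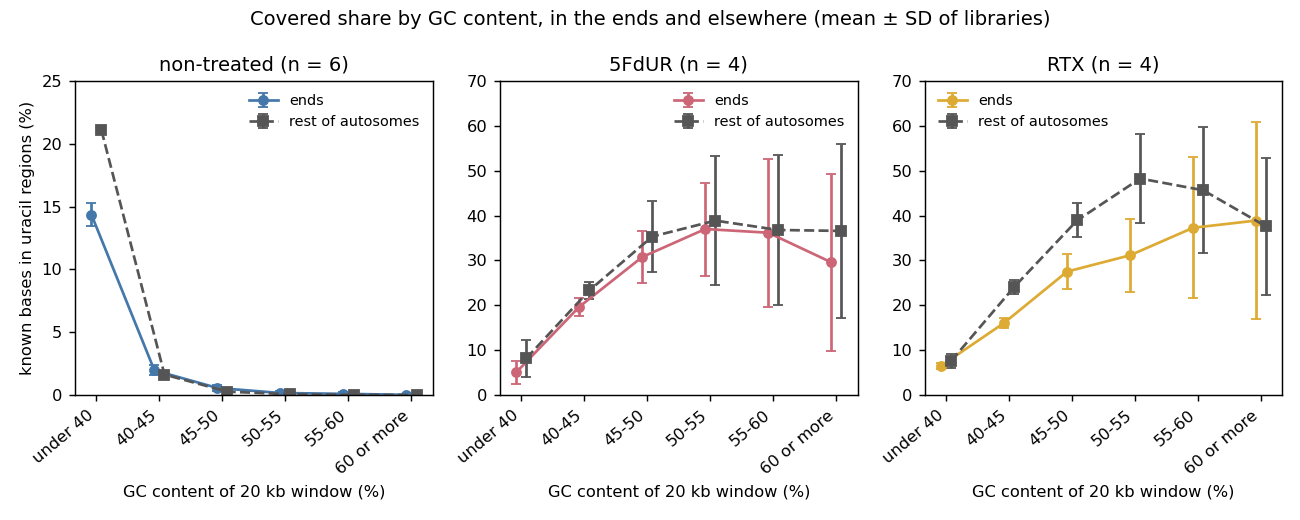
Covered share (percent of known bases, mean with SD over libraries as error bars) of 20 kb windows by GC content, in the ends (circles, solid) and in the rest of the autosomes (squares, dashed), for non-treated, 5FdUR and RTX libraries; the non-treated panel has its own scale. Without drug the share was highest under 40% GC in both sets (14.4% in the ends and 21.1% elsewhere), while after RTX the ends lay below the rest at 45% to 50% GC (27.5% against 38.9%).

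The N50 of regions in the ends was larger after either drug. The N50, the length at which regions of that length or longer hold 50% of the region bases, was 3600 to 4100 bp in non-treated libraries (median 3700) and 5500 to 24000 bp in drug-treated libraries (median 12800). On the log2 scale the difference was 1.66, or 3.16-fold (exact permutation test, two-sided, p = 0.000666, adjusted p = 0.00133). Outside the ends the N50 was also larger, at 5000 to 5300 bp without drug and 5500 to 33200 bp with drug, and the difference in change between the ends and the rest was not tested. The median region length in the ends overlapped between the groups, at 900 to 1200 bp and 1000 to 1600 bp. The number of regions with their midpoint in an end was 834 to 1141 without drug and 3730 to 5751 with drug. The longest region of each non-treated library was 13500 to 20600 bp and lay in 3p or 18p. The longest of all was 463000 bp in replicate 2 of 5FdUR_UGI (chr5:987101-1450100). It spanned TERT, the catalytic subunit of telomerase, and the transporter genes SLC6A3, SLC6A18, SLC6A19 and SLC12A7. In replicate 2 of RTX_UGI a region of 356800 bp (chr13:113079201-113436000) spanned the coagulation factor genes F7 and F10, the ubiquitin ligase scaffold CUL4A and the lysosomal protein gene LAMP1.

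Coverage was not concentrated at the chromosome tip. In drug-treated libraries it was 21.3% ± 6.13 in the terminal 100 kb, 26.5% ± 6.78 from 500 to 1000 kb and 28.5% ± 6.73 from 1500 to 2000 kb (SD, n = 8). Non-treated libraries stayed between 2.02% and 3.50% on average in all 6 distance classes of the ends. In the terminal 100 kb, 45.6% of known bases were not called in any of the 15 libraries, against 24.6% of the ends as a whole and 29.8% of the rest. The authors removed poorly mappable DNA before calling, and the part of that step in the terminal share was not tested. Between 9.9 and 10 Mb from the end, the covered share was 7.14% without drug and 20.8% with drug.

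**Figure D3:**
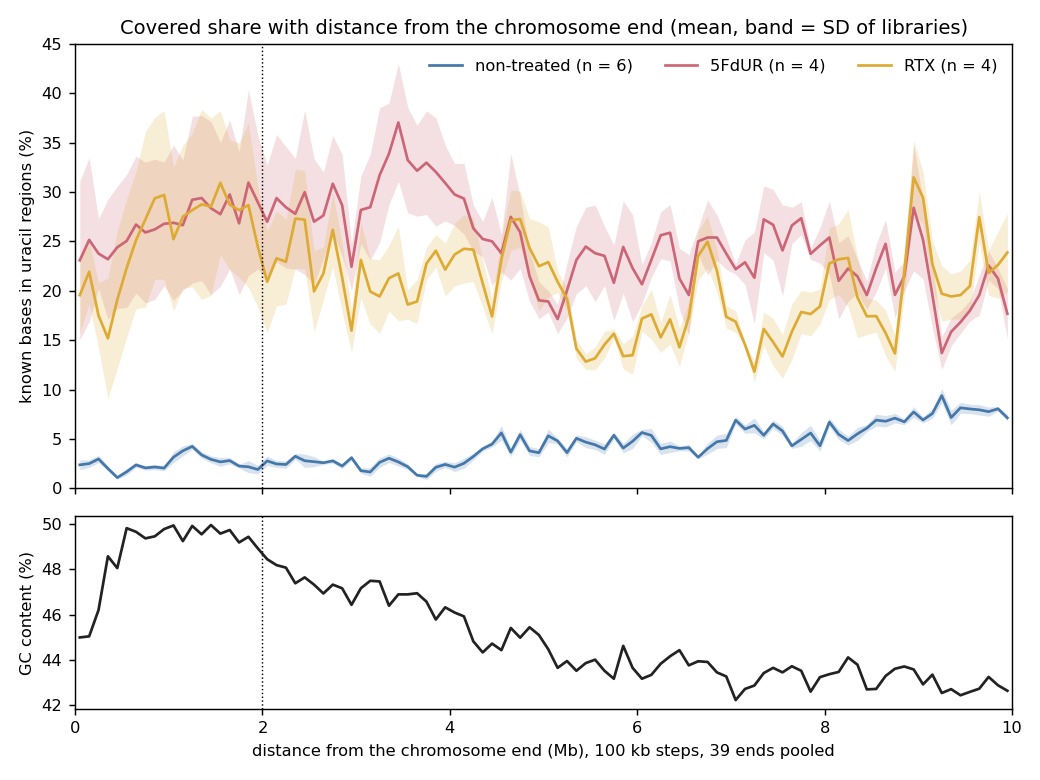
Upper panel, covered share (percent of known bases) in 100 kb steps up to 10 Mb from the chromosome end, as the mean (line) and SD (band) over non-treated, 5FdUR and RTX libraries; lower panel, GC content of the same steps. The dotted line marks 2 Mb. Non-treated coverage was 2.38% in the first step and 7.14% in the last, 5FdUR coverage 23.1% and 17.7%, and RTX coverage 19.6% and 23.9%.

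Single ends differed widely. In 29 of the 39 ends, every drug-treated library lay above every non-treated one, and 39.8% of the 1336 interior windows of 2 Mb met the same rule. In 1 end, 3p, every drug-treated library lay below every non-treated one, against 23.4% of interior windows. The remaining 9 ends overlapped. All 19 ends with at least 50% GC were among the 29, as were 27 of 29 interior windows of that composition. Of the 11 ends with 45% to 50% GC, 8 were higher, against 152 of 171 interior windows. Of the 9 ends under 45% GC, 2 were higher and 1 lower, against 353 and 313 of 1136 interior windows. When regions below a log2 value of 0.35 were left out, 4 ends were higher and 3 lower. Interior windows were not recounted at that minimum, so these counts have no share beside them. In that setting replicate 2 of 5FdUR_UGI_MMR covered 0.275% of the ends and the other drug-treated libraries 11.8% to 28.0%.

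The 5 ends with the highest mean share after drug were 20p, 2q, 5p, 13q and 21q. The 20p end was covered at 62.8%, 48.3%, 49.6% and 37.7% in the 5FdUR libraries and at 52.5%, 60.7%, 49.3% and 54.0% in the RTX libraries, in the order UGI replicates 1 and 2, then UGI_MMR replicates 1 and 2. Its non-treated range was 1.87% to 3.32%, so the groups were far apart. It held 145 to 231 regions per drug-treated library and 21 to 38 per non-treated library, with a GC content of 45.5%, the lowest of these 5 ends. The mean share after drug was 47.6% in 2q, 45.9% in 5p, 43.9% in 13q and 43.2% in 21q.

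The 5 ends with the lowest share after drug, 3p, 4q, 9p, 18p and 1q, were also the 5 highest without drug, and their GC content was 36.8% to 41.1%. The 3p end, which holds 2 protein-coding genes, was covered at 22.6%, 22.01%, 20.7%, 17.7%, 24.2% and 25.96% in the non-treated libraries. No drug-treated library covered more than 1.28% of it, and K562 covered 23.6%. The 18p end had a mean of 12.4% without drug, 12.1% after 5FdUR and 4.77% after RTX, the 1q end 12.2%, 14.6% and 2.71%, and the 4q end 8.02%, 9.46% and 0.00%. In 18p, 1q and 4q the 5FdUR libraries overlapped the non-treated ones, while all 4 RTX libraries lay below them.

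**Figure D4:**
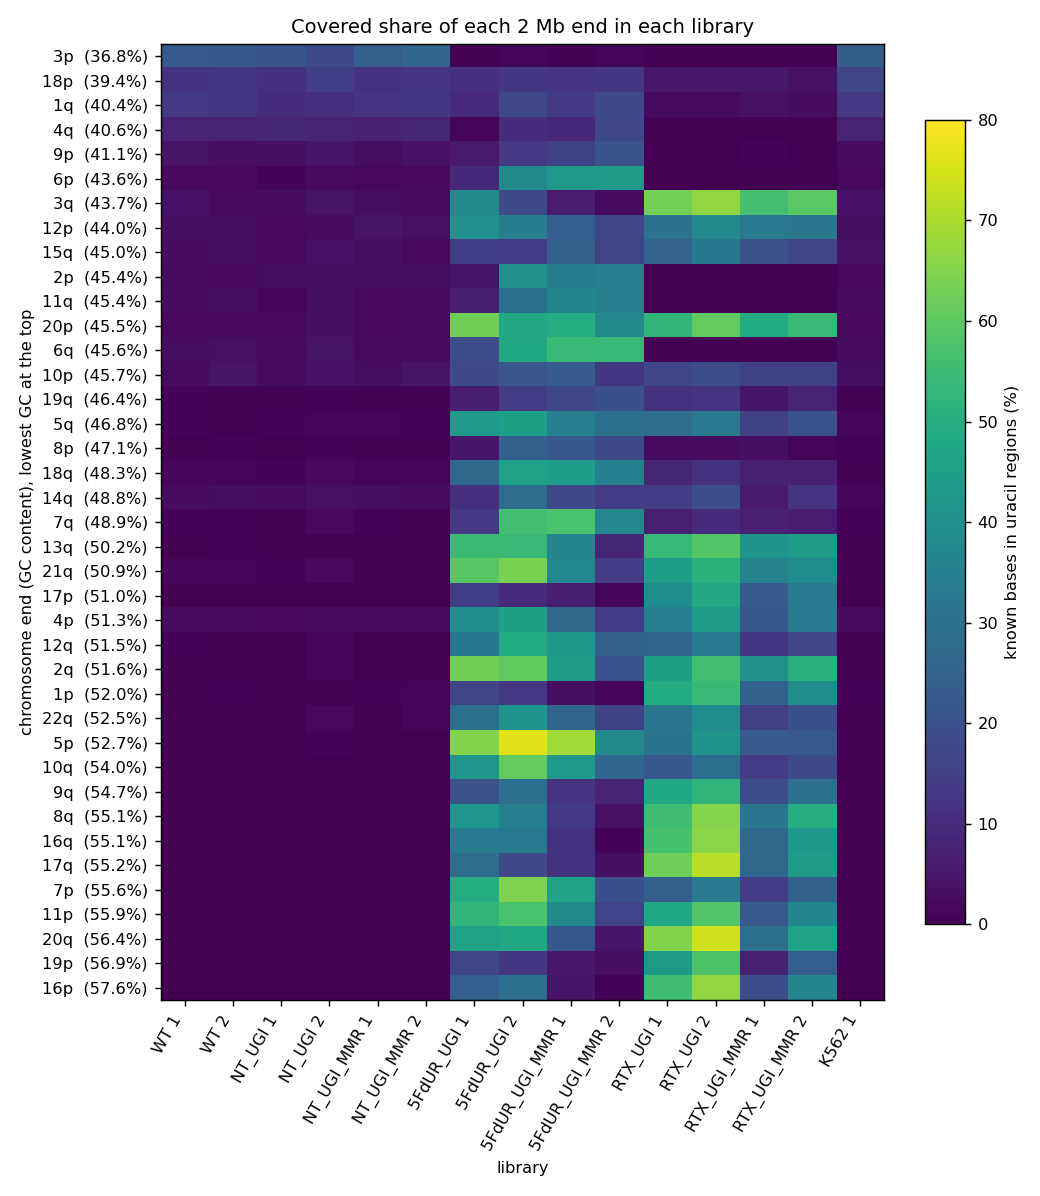
Covered share of each of the 39 ends (rows, ordered from lowest to highest GC content, given beside each name) in each of the 15 libraries (columns); the colour scale runs from 0 to 80% of known bases. The top row is bright only without drug (3p, 17.7% to 25.96%), the rows 2p, 6p, 6q and 11q only after 5FdUR, and most of the bottom rows after either drug.

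Across the 39 ends, the Pearson correlation of covered share with GC content was −0.71 to −0.79 in non-treated libraries. It was 0.69 and 0.73 in RTX_UGI, 0.35 and 0.58 in RTX_UGI_MMR, 0.51 and 0.45 in 5FdUR_UGI, and 0.10 and −0.29 in 5FdUR_UGI_MMR. These values describe the ends, which share libraries and base composition. Over the 1336 interior windows the same correlation was 0.13 to 0.73 in the drug-treated libraries.

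Between replicates of a condition, the profile over the 39 ends correlated at 0.94 or more in the non-treated and RTX conditions. It correlated at 0.76 in 5FdUR_UGI and 0.82 in 5FdUR_UGI_MMR. The Jaccard index in the ends was 0.26 to 0.61 between replicates. Between a non-treated and a drug-treated library it was at most 0.0154. Non-treated libraries held 1.65 to 2.16 Mb of region bases in the ends and drug-treated libraries 13.2 to 26.7 Mb. That gap in size alone keeps the index of such pairs low, so it cannot be set directly beside that of replicates.

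The totals of the 2 drugs overlapped, and single ends differed between them. The subtelomeric log2 ratio was 0.64, 1.03, 0.60 and −0.01 after 5FdUR and 0.67, 0.79, −0.10 and 0.27 after RTX, and the groups overlapped. The difference of 0.15 did not pass (exact permutation test, two-sided, p = 0.657; adjusted p = 0.657; smallest p possible 0.0286). The GC-standardised difference of 0.28 did not pass either (exact permutation test, p = 0.0857, adjusted p = 0.103). It did pass with ends of 5 Mb, at 0.53, and with GC classes of 100 kb windows, at 0.46 (exact permutation test, adjusted p = 0.0429 in both). In 11 ends every 5FdUR library lay above every RTX library, against 24.9% of interior windows, and in 3 ends below, against 19.6%. Without replicate 1 of RTX_UGI_MMR the latter count was 9. Without replicate 1 of 5FdUR_UGI, 13 ends were higher and 4 lower, and the log2 ratio and its GC-standardised form differed by 0.13 and 0.36 (exact permutation test, adjusted p = 0.743 and 0.0857). The 11 ends all had under 50% GC: 5 of the 9 ends under 45% and 6 of the 11 from 45% to 50%. Of the 171 interior windows of 45% to 50% GC, 28 were higher after 5FdUR and 73 lower.

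The 3 ends furthest towards 5FdUR were 6q, 6p and 7q. The 6q end was covered at 18.8%, 48.0%, 53.8% and 53.5% in the 5FdUR libraries and at 0.567%, 0.515%, 0.412% and 0.160% in the RTX libraries. The 6p end was covered at 9.196%, 38.2%, 43.4% and 43.4% after 5FdUR, and 3 of the RTX libraries had no region there (the fourth covered 0.0412%). In both ends replicate 1 of 5FdUR_UGI was the lowest of the 5FdUR libraries, and still above every RTX library. In non-treated cells 6q was covered at 2.37% to 4.27% and 6p at 0.717% to 2.46%, so both ends lay lower after RTX than without drug. The 7q end had means of 40.9% ± 20.7 after 5FdUR and 7.38% ± 1.42 after RTX (SD, n = 4 each).

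The 3 ends furthest towards RTX were 3q, 17q and 1p. The 3q end was covered at 63.2%, 66.7%, 56.4% and 59.5% in the RTX libraries and at 37.9%, 18.7%, 6.41% and 2.38% in the 5FdUR libraries. The last of these lay just under the non-treated range of 2.41% to 4.36%, and the other 3 above it. The 1p end was covered at 49.1%, 54.1%, 24.8% and 38.7% after RTX and at 16.7%, 13.3%, 3.43% and 1.28% after 5FdUR, with no overlap. In 17q the means were 51.3% ± 19.9 and 15.3% ± 10.5, but the ranges overlapped by 1 library of each drug.

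Within each drug, the MMR-proficient cells covered less of the ends. The mean was 22.4% in 5FdUR_UGI_MMR against 31.3% in 5FdUR_UGI, a difference of −8.86 points, and 20.0% in RTX_UGI_MMR against 30.8% in RTX_UGI, a difference of −10.8 points. In both drugs the 2 proficient libraries lay below the 2 deficient ones, but 2 against 2 libraries cannot give an exact p under 0.333. On the GC-standardised log2 scale the difference was 0.12 with overlap after 5FdUR and −0.27 without overlap after RTX. Without drug the mean was 2.57% in NT_UGI_MMR and 2.50% in NT_UGI, and the libraries overlapped. Over the 12 UGI-expressing libraries, with labels permuted within treatment, the log2 ratio was lower in proficient cells by 0.38, which did not pass (difference −0.38, exact permutation test, two-sided, p = 0.0648, adjusted p = 0.0972). Without replicate 1 of NT_UGI it was −0.45 and passed (exact permutation test, adjusted p = 0.0278). NT_UGI and WT had means of 2.50% and 2.53%, and their log2 ratios overlapped, with a difference of −0.01. The MMR-proficient subline carries an added chromosome 3, which cannot be told apart from MMR in these libraries.

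Ends with high GC content held the lower values in MMR-proficient cells, as did GC-rich windows elsewhere. After RTX, 26 ends were lower in both proficient libraries (18.5% of interior windows) and 1 was higher (35.6% of interior windows). After 5FdUR, 19 ends were lower (23.7% of interior windows) and 6 were higher (37.2% of interior windows). In the 19 ends with at least 50% GC, the mean was 48.3% in RTX_UGI and 28.99% in RTX_UGI_MMR, with 17 ends lower. For 5FdUR the same ends had 40.2% and 19.1%, with 16 ends lower. The 20 kb windows of 50% to 55% GC outside the ends were also lower in proficient cells. They were covered at 51.3% and 58.3% in RTX_UGI and 34.6% and 48.75% in RTX_UGI_MMR. For 5FdUR the values were 51.05% and 48.7% in 5FdUR_UGI and 36.1% and 19.7% in 5FdUR_UGI_MMR. In the 11 ends of 45% to 50% GC, the means were 28.1% in 5FdUR_UGI and 32.7% in 5FdUR_UGI_MMR, and 14.1% in RTX_UGI and 10.6% in RTX_UGI_MMR. The largest difference after 5FdUR was −35.7 points in 21q and after RTX −34.9 points in 19p, and 6q was higher by 20.3 points in 5FdUR_UGI_MMR. The 19p end was chosen after its values were seen. In 5FdUR_UGI_MMR the mean rests on unlike replicates, with 26.4% in replicate 1 and 11.8% in replicate 2 over the 19 ends.

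**Figure D5:**
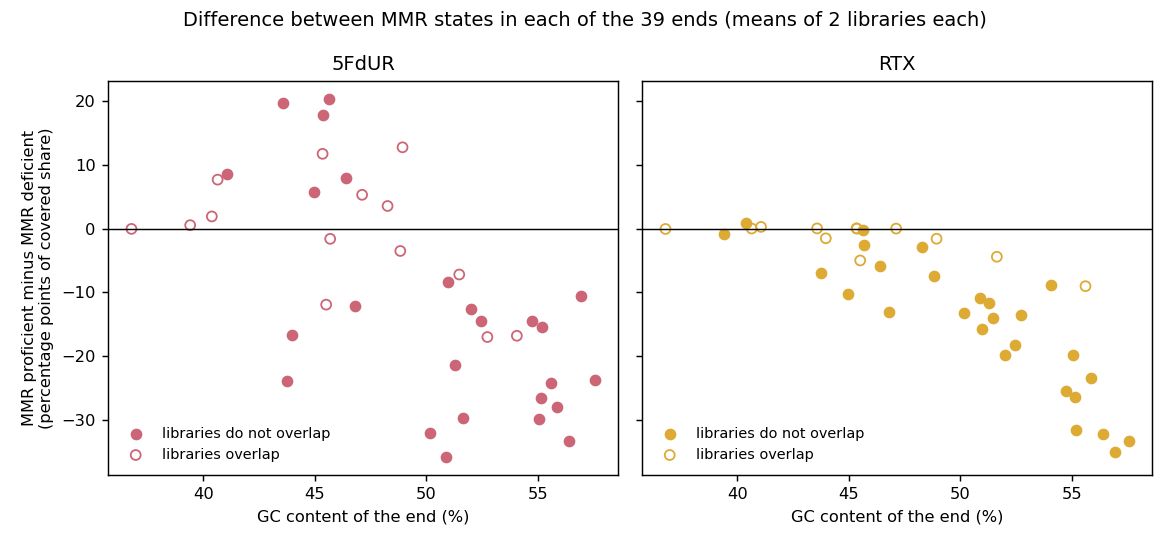
Difference in covered share between MMR-proficient and MMR-deficient cells (percentage points, means of 2 libraries each) against the GC content of each of the 39 ends, after 5FdUR (left) and RTX (right). Filled points mark ends whose libraries did not overlap (25 for 5FdUR, 27 for RTX), and nearly all points above 50% GC lie below 0, down to −35.7 (5FdUR) and −34.9 points (RTX).

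The share of genes called between drug-treated and non-treated libraries was no larger in the ends than elsewhere. Of the 1238 protein-coding genes with their midpoint in an end, 163 (13.2%) were higher in every drug-treated library, against 15.4% of the 17873 other autosomal genes, and 13 (1.05%) were lower, against 5.51%. Without replicate 2 of 5FdUR_UGI_MMR, 253 were higher, and with regions of at least 5 kb, with the highest log2 values up to 300 Mb per library, and with a log2 value of at least 0.35, 22, 7 and 2 were. The median difference in covered share, drug-treated minus non-treated, was 24.9 points in the ends and 27.8 points elsewhere. Between the drugs, 103 genes of the ends (8.32%) were higher after 5FdUR, against 7.73% elsewhere, and 181 (14.6%) were lower, against 24.6%. No region touched 48 of the genes in any library.

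Among the 14 genes of DNA metabolism, repair and telomere maintenance, 2 were higher in every drug-treated library (POLE and ENOSF1), none was lower, and the median difference was 25.5 points. Over all genes of the ends, 13.2% were higher and 1.05% lower, with a median of 24.9 points. TYMS (chr18:657653-673578), the target of both drugs, was not covered in any non-treated library. It was covered at 42.5%, 41.2%, 30.6% and 37.5% in the 5FdUR libraries and at 0%, 5.63%, 0% and 0% in the RTX libraries. All 5FdUR libraries thus lay above all RTX libraries. ENOSF1, which overlaps TYMS on the opposite strand, had means of 13.2% and 3.01%. TERT (chr5:1253147-1295068) was covered at 99.8%, 100%, 83.8% and 79.0% after 5FdUR and at 19.0%, 5.95%, 4.05% and 0% after RTX. Its non-treated value was 0% in all 6 libraries.

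FANCA and TELO2 were lower in every 5FdUR library than in every RTX library, as were 14.6% of all genes of the ends. FANCA, of the Fanconi anaemia core complex, was not covered after 5FdUR and was covered at 77.4%, 63.8%, 28.4% and 43.4% after RTX. TELO2, which stabilises PI3K-related kinases, had means of 2.76% and 72.4%, with no overlap. POLE (chr12:132623753-132687376), the catalytic subunit of DNA polymerase epsilon, was covered at 64.7%, 44.9%, 32.5% and 2.98% after 5FdUR and at 55.9% to 70.8% after RTX. The helicase gene RTEL1 had means of 7.40% and 53.8%, the mitochondrial RNA polymerase gene POLRMT 3.66% and 44.97%, and PARP10 22.8% and 78.01%, with overlap between the drugs in each. RAD52 stayed at or below 1.91% in all 14 libraries. EME2, a subunit of a structure-specific endonuclease, was not covered after RTX and was covered at 37.8%, 70%, 45.6% and 0% after 5FdUR, with overlap. The DNA glycosylase gene MPG was not covered after 5FdUR and was covered at 58.4%, 69.7%, 0% and 6.74% after RTX, with overlap. CHTF18 and RECQL4 overlapped between the drugs, at means of 12.3% and 44.3% and of 9.70% and 10.8%.

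Of the 10 growth control and cancer genes, 1 was higher after drug (SDHA, a subunit of succinate dehydrogenase), none was lower, and the median difference was 21.8 points. The shares over all genes of the ends were 13.2% and 1.05%, and the median was 24.9 points. GNB1, a G protein beta subunit, was covered at 85.3%, 93.3%, 67.7% and 85.8% after RTX and at 16.7%, 0.560%, 0.187% and 0% after 5FdUR. TRAF2, an adaptor of TNF receptors, had means of 80.4% and 22.1%, and AXIN1, a scaffold of the beta-catenin destruction complex, 55.01% and 4.05%, both without overlap. NOTCH1 had means of 66.9% after RTX and 25.15% after 5FdUR, with overlap. FASN, fatty acid synthase, had means of 52.1% and 4.38%, ACTG1 15% and 0.690%, and STK11 6.42% and 5.00%, each with overlap. GPX4 was not covered in any library, and HRAS in 1 library alone (36.5% in replicate 2 of RTX_UGI).

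The alpha-globin genes in 16p were not covered after 5FdUR in any of 4 libraries. After RTX the mean was 56.5% for HBZ, 39.2% for HBM, 20% for HBA2, 10% for HBA1 and 37.5% for HBQ1. None of the 5 was higher in every drug-treated library, and HBM alone was higher in every RTX library than in every 5FdUR library. Over all genes of the ends, 14.6% met the latter rule. HBA1, HBA2 and HBQ1 are under 1 kb long, and regions lie on a 100 bp grid, so their shares move in coarse steps.

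Of the 15 neuronal, adhesion and receptor genes in the ends (the list has 16, and MYT1L lies further inward by its midpoint), 4 were higher after drug and 2 were lower, with a median difference of 7.06 points. Over all genes of the ends, 163 of 1238 were higher and 13 lower, with a median of 24.9 points. The 2 lower genes were the adhesion molecule genes of 3p. CHL1 was covered at 13.2% to 23.9% in the non-treated libraries (median 20.5%) and at most 0.517% after drug, and CNTN6 at 19.3% to 31.2% (median 25.8%) and at most 1.99%. The higher genes were SLC6A3, EHMT1, CHRNA4 and SHANK3. SLC6A3, the dopamine transporter gene, was covered at 93.8%, 100%, 100% and 76.3% after 5FdUR and at 35.8%, 47.5%, 7.58% and 7.77% after RTX. CHRNA4, a nicotinic receptor subunit, had means of 61.0% and 64.8%, SHANK3, a scaffold of the postsynaptic density, 41.6% and 49.4%, and the histone methyltransferase gene EHMT1 8.80% and 3.18%. The dopamine receptor gene DRD4 was not covered in any library.

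Of this list, 4 genes were higher in every 5FdUR library than in every RTX library, SLC6A3 and the 3 given next, and the other 11 overlapped. Over all genes of the ends, 8.32% were higher by this rule. PTPRN2, a receptor-type phosphatase of secretory vesicles that spans 1049 kb of 7q, was covered at 7.21%, 74.8%, 79.5% and 55.2% after 5FdUR and at 0.153% to 1.08% after RTX. VIPR2 in the same end had means of 43.7% and 0%, and CACNA1B, a subunit of N-type calcium channels in 9q, 49.1% and 0.658%. In CACNA1B and PTPRN2 the non-treated libraries had at most 1.98% and 2.12%. ADARB2 was covered at 0%, 13.4%, 27.1% and 20.4% after 5FdUR and not after RTX, DLGAP2 had means of 14.99% and 0.319%, and SNTG2 9.78% and 0%. These 3 genes and DIP2C (14.7% and 3.10%) were also covered without drug, at means of 0.596% to 3.98%, and overlapped between groups.

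None of the 13 genes of the terminal duplications was called between drug-treated and non-treated libraries, and their median difference was 0 points. By the same rule, 13.2% of all genes of the ends were higher and 1.05% lower, with a median of 24.9 points. With 13 genes, the absence of calls was not tested against these shares. Of the 13 genes, 7 were not covered in any HCT116 library, namely FRG2, SCGB1C1 and the olfactory receptor genes OR4F3, OR4F16, OR4F17, OR4F21 and OR4F29. TUBB8, a beta-tubulin gene of 10p, was covered at 18.2% to 97.8% after drug and in 1 non-treated library (19.0%). FRG1 in 4q, a gene next to the repeat array of facioscapulohumeral dystrophy, was covered at 5.33% to 27.1% without drug and at 6.67% in 1 drug-treated library. DUX4 was covered in 1 library (35.8% in replicate 1 of 5FdUR_UGI_MMR). Reads that map to several copies were removed by the authors, so these genes are uncertain. FAM110C in 2p was covered at 41.98%, 49.4%, 20.99% and 6.17% after 5FdUR and not after RTX or without drug. ZMYND11 in 10p was covered at 3.85% to 30.1% without drug, at 1.44% to 11.7% after 5FdUR and at 12.6% to 27.2% after RTX. OR4F5 was covered in 1 library (1.61%).

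Among genes of at least 10 kb, the 5 with the largest difference between drug-treated and non-treated libraries were SCRT2, ANGPT4, RSPO4 and ENSG00000270299 in 20p and NRROS in 3q. SCRT2, a zinc finger repressor, had a mean of 85.8% after drug, ANGPT4, an angiopoietin, 84.9%, and RSPO4, a secreted activator of Wnt signalling, 84.7%. None of the 3 was covered in a non-treated library. NRROS was covered at 100%, 84.0%, 30.7% and 0% after 5FdUR and at 98.7% to 100% after RTX. The 5 with the smallest difference lay in the olfactory receptor cluster of 1q. OR2L5 was covered at 10.3% to 88.8% without drug, OR2M3 at 11.4% to 65.2% and OR2T12 at 4.48% to 47.0%, and no drug-treated library covered any of the 3. OR2AJ1 and ENSG00000239395 had means of 37.6% and 44.03% without drug and 0.118% and 2.19% with drug.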

How the data were processed

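U-DNA-Seq region files of 15 enriched libraries were analysed. The authors aligned reads to GRCh38 with BWA (0.7.17-r1194 in the submitters' processing notes), removed duplicates, ambiguously mapped reads and blacklisted segments, and computed genome-scaled coverage in 100 bp bins with deepTools (3.2.1). The authors deposited 1 log2 value per region (enriched over input), read here from an unnamed column, with thresholds picked per library to give replicates and merged data a similar total interval length. Input and mock samples, coverage tracks and peaks were not used here. The deposited regions carry no read depth, and no counting interval is given. The sequencing platform of each library is not given in the sources used here.

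Covered shares are percentages of known bases in 100 bp bins. GC content and genes came from the GRCh38 sequence and GENCODE release 44. A gene was placed by its midpoint. An end, gene or window was called where all libraries of one group exceeded all of the other. Windows of 20 kb were used for GC standardisation where at least 50% of bases were known. Windows beyond the lowest or highest class with at least 50 interior windows were counted in that class. The most GC-rich windows of the ends were thus matched in part to interior windows of lower GC content. The 6 tests were two-sided exact permutation tests (SciPy 1.17.1, NumPy 2.4.6, pandas 2.3.3, Python 3.11.15) with Benjamini-Hochberg adjustment and a threshold of 0.05. The call rule was tested on simulated shares of the 1336 windows for drug-treated against non-treated libraries. All simulated libraries took the SD of the non-treated ones. Of windows raised by 5 SD, 99 of 100 were recovered, as were 64 of 64 lowered by the same amount. Windows with too little coverage to be lowered were left out, and 1 of 1136 unchanged windows was called. In most ends the real drug-treated libraries varied more, so these rates need not hold for them. The members and lists were chosen with earlier results of these data known. Ends named are the 5 highest and lowest after drug, the 5 highest without drug and the 3 furthest towards each drug. Genes named are those of 5 lists and the 5 of at least 10 kb at each extreme. The replicates are biological. The tests of drug-treated against non-treated libraries and of 5FdUR against RTX pool conditions. The spread within their groups thus joins differences between conditions to those between separate cultures. Replicate numbers were not taken as pairs. Of 21 same-number correlations of deviations over the ends, 7 exceeded 0.1. Between MMR states they were 0.50 in 5FdUR and 0.56 in RTX, and between the drugs they were −0.64 to −0.45. One listed gene and the sequences of some runs are not reported here.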

Additional observations from a re-analysis of the deposited data

Results flagged for a closer look

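The log2 value of 1 region stood apart among the non-treated libraries. In replicate 2 of NT_UGI the highest log2 value of any region in the ends was 1.14 (chr11:134825101-134830700, 5600 bp, outside protein-coding genes), while the other 5 non-treated libraries had highest values of 0.64 to 0.78. The gap to the next library was 0.719 of the whole range, above the critical value of Dixon's test for 6 libraries.

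Replicate 1 of 5FdUR_UGI had a GC-standardised log2 ratio of −0.41, while the other 3 5FdUR libraries lay between −0.14 and −0.08. The gap was 0.843 of the range, above the critical value for 4 libraries. Such a Dixon check marks about 1 group in 20 by chance. In all 80 checks were made, and these also included comparisons between MMR states, which have no such rate.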

How the results depend on the processing

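Across 26 alternatives, the log2 ratio of drug-treated against non-treated libraries lay between 2.62 and 3.34 and kept its direction in all, and leaving out 1 library at a time gave 2.62 to 2.79. With the 7 conditions as samples the exact permutation tests could not pass: from bases called in both replicates, condition means and merged region files the ratio was 3.03, 2.70 and 2.89, the GC-standardised ratio −0.47, −0.39 and −0.37, and the log2 N50 1.58, 1.66 and 2.09 (adjusted p = 0.114 in each). With regions of at least 5 kb the GC-standardised ratio was −0.26 (exact permutation test, adjusted p = 0.0826). Between the drugs, the GC-standardised difference passed with 5 Mb ends (0.53) and 100 kb GC windows (0.46), and the log2 ratio turned to −0.00175 without replicate 2 of 5FdUR_UGI and to −0.0161 without replicate 1 of RTX_UGI_MMR (range without 1 library, −0.02 to 0.35). The MMR difference ranged from −0.49 to −0.28 without 1 library, and passed without replicate 1 of NT_UGI (−0.45). With the replicate block, the differences were 2.70, 0.15, −0.38, −0.39, 0.28 and 1.66, as without it, and it changed no call (exact permutation test within replicate numbers, adjusted p = 0.00327 for the 3 that passed).

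Counts rested more on the log2 values, and neither interior windows nor genes outside the ends were recounted under these settings. Ends lower after drug were 3 with the highest log2 values up to 300 Mb, with a log2 value of at least 0.35 and with bases called in both replicates. With the 0.35 minimum, 4 ends were higher after drug, 2 ends were higher and 6 lower after 5FdUR than after RTX, and 2 genes were higher and 7 lower after drug. Genes higher were 22 and genes lower 3 with regions of at least 5 kb, and 7 genes were higher with the 300 Mb limit. Ends lower after 5FdUR were 7 from bases called in both replicates and 5 from merged files, which gave 25 genes lower. Leaving out 1 library gave 29 to 30 ends higher and 1 lower after drug, 11 to 15 ends higher and 3 to 9 lower after 5FdUR than after RTX (9 without replicate 1 of RTX_UGI_MMR), and 163 to 253 genes higher (253 without replicate 2 of 5FdUR_UGI_MMR) and 13 to 16 lower. Of single ends, 8p was −0.94 points with a 5 Mb window and 14q −2.49 points with a 1 Mb window, both positive at 2 Mb; no other called end or named gene turned. The region files hold no read counts, so precision rests on replicates.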

Other observations

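On the 17 chromosomes with both ends analysed, the short-arm and the long-arm ends took opposite orders with treatment. In the 6 non-treated libraries the short-arm ends were covered at 2.85% to 3.68% and the long-arm ends at 1.72% to 2.36%, with the short arms higher in all 6 by 1.003 to 1.735 points. In the 8 drug-treated libraries the long-arm ends were higher in all 8, by 1.94 to 4.46 points. The order was not tested, and chromosome 3 weighs on it in both groups. The 3p end alone was covered at 17.7% to 25.96% without drug. After drug, 3p was covered at 0% to 1.28% and 3q at 2.38% to 66.7%. With chromosome 3 left out, the order did not hold in every library of either group.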
